A study of Mus musculus with 21 samples.

Results

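The tumour suppressor p53, encoded by *Trp53* in the mouse, raises the transcription of a set of target genes after DNA damage and other stresses. Their products stop the cell cycle, start apoptosis, repair DNA, adjust metabolism and, through *Mdm2*, bring p53 itself down again. In cultured embryonic fibroblasts the best known part of this response is arrest through *Cdkn1a*. The 35 p53 target genes described here were named by symbol, and the table of gene-level read counts was searched for each. All 35 are among its 24454 genes and among the 13719 that had enough reads to be tested. The question is which of these targets were higher after Cre infection in each of 3 settings, and which were higher with the G-quadruplex ligand TMPyP4.

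Polyadenylated RNA was sequenced from 21 libraries of mouse embryonic fibroblasts (MEFs), 3 in each of 7 groups, which the labels call biological replicates without stating from which cultures or embryos they came. Rtel1f/f MEFs carry floxed alleles of *Rtel1*, a helicase that acts at telomeres and replication forks, and were infected with Ad-GFP (+GFP), with Ad-Cre (+Cre), or with Ad-GFP followed by 10 µM TMPyP4 for the last 48 h (+GFP +TMPyP4). Rtel1f/f MEFs transduced with RTEL1 C1252A/C1255A, a mutant written CA here, were infected with Ad-GFP (CA +GFP) or Ad-Cre (CA +Cre). Trf1f/f MEFs, floxed for the shelterin gene *Terf1*, received Ad-GFP or Ad-Cre in the same way. RNA was taken from every group 96 h after infection. Cre came from an adenovirus in each setting, so a Cre comparison holds the deletion and the Cre virus together. The mutant was expressed from a vector over the floxed alleles, and reads counted for *Rtel1* cannot separate the mutant from the endogenous transcript. Trf1f/f is a different line, and no +TMPyP4 group exists in it or in CA cells.

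Library totals ran from 43732660 to 47300825 counts in Rtel1f/f +GFP, 37651982 to 43896564 in Rtel1f/f +Cre and 32069888 to 43013208 in +GFP +TMPyP4. The CA totals were 38108060 to 47906610 with +GFP and 41640285 to 51938593 with +Cre. In Trf1f/f cells they were 39208515 to 42532282 with +GFP and 36786352 to 45262564 with +Cre. Levels are given as CPM, counts relative to library sizes scaled by TMM, for replicates 1, 2 and 3 in that order. CPM compares a gene between libraries but not with another gene. A gene is called higher or lower at an adjusted p of at most 0.01, from an edgeR quasi-likelihood F test across all 13719 genes that shares the spread over the 7 groups. In bulk RNA, fewer cells that express a gene and less of its RNA per cell cannot be told apart.

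*Rtel1* stood at 66.2, 59.1 and 60.2 CPM in Rtel1f/f +GFP, 29.9, 31.9 and 26.8 with +Cre and 66.3, 79.0 and 70.9 with +GFP +TMPyP4. *Rtel1* was at 338, 328 and 331 CPM in CA +GFP and 283, 253 and 257 in CA +Cre, where the vector adds to the count. *Rtel1* in Trf1f/f cells was at 49.1, 47.9 and 50.05 with +GFP and 44.2, 43.7 and 49.7 with +Cre. Each +Cre library of the Rtel1f/f and CA cells lay below its +GFP libraries, and all CA libraries lay far above the rest. The log2 fold change was -1.07 ± 0.079 (adjusted p = 5.4e-09) in Rtel1f/f cells and -0.33 ± 0.077 (adjusted p = 0.0241) in CA cells. *Terf1* in Trf1f/f cells was at 27.9, 29.6 and 30.3 CPM with +GFP and at 0.110, 0.0458 and 0.0268 with +Cre, the latter from 5, 2 and 1 reads. *Terf1* in Rtel1f/f cells was at 28.7, 28.9 and 27.3 CPM with +GFP, 32.3, 36.3 and 33.5 with +Cre and 32.1, 36.0 and 33.9 with +TMPyP4. *Terf1* in CA cells was at 34.8, 36.9 and 33.3 CPM with +GFP and 33.1, 33.8 and 33.3 with +Cre. Only the Trf1f/f +Cre libraries were near 0.

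The Rtel1f/f +GFP libraries, which are the controls of both *Rtel1* loss and TMPyP4, stand apart from the other libraries of that line. Principal components of log2 CPM separated Trf1f/f from all other libraries on component 1, with 73.5% of the variance. On component 2, with 14%, the 3 Rtel1f/f +GFP libraries scored -49.9, -64.25 and -62.06, and the remaining 12 libraries of Rtel1f/f and CA cells between -27.72 and 41.91. Replicates 1, 2 and 3 scored -0.49, 32.22 and 7.54 in Rtel1f/f +Cre and -27.72, -3.44 and -12.11 with +TMPyP4. CA +GFP scored 5.19, 37.94 and 22.66, and CA +Cre 8.9, 41.91 and 31.41. Replicate 1 was the lowest and replicate 2 the highest in each of these groups, and the reverse held in Rtel1f/f +GFP. Whether the Rtel1f/f +GFP libraries were handled apart from the others was not tested. Fibroblast identity was checked with 10 marker genes, of which 8 were over 1 CPM in the Rtel1f/f and CA groups and 10 in Trf1f/f. Their summed CPM (lowest, median and highest library) was 19433, 20074 and 21420.0 in Rtel1f/f +GFP, 7962, 9861 and 10683 with +Cre and 10840.0, 12070.0 and 14376 with +TMPyP4. The sums were 9308, 10189 and 12916 in CA +GFP and 7882, 8286 and 11609 in CA +Cre. In Trf1f/f cells they were 21858, 22569 and 28985 with +GFP and 22435, 25635 and 26582 with +Cre. By TPM the most abundant marker was *Col1a2* in Rtel1f/f +GFP, *Vim* in both Trf1f/f groups and *S100a4* in the other 4. The markers did not move together: after *Rtel1* loss 6 of 10 were called lower, but *S100a4* and the nearly absent *Thy1* were called higher, and with TMPyP4 5 were called lower. All genes were called higher and lower at 22.0% and 21% after *Rtel1* loss and at 16.6% and 13.4% with TMPyP4. Of the other cell types only 7 neural crest markers summed over 10 CPM, at 236, 241 and 334 in Rtel1f/f +GFP, 430.2, 462 and 499 with +Cre and 334, 346 and 362 with +TMPyP4, most of it *Nes*, which was called higher after *Rtel1* loss at 0.85 ± 0.14 (adjusted p = 4.22e-05), while *Map2* was called lower. The part of any marker in the changes of the p53 targets was not tested. Since those controls are set apart, the members were also compared with CA +GFP.

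After *Rtel1* loss 17 members were higher and 7 lower, beside 22.0% and 21% of all genes. In CA cells Cre left 5 members higher and 0 lower, beside 0.525% and 0.569% of all genes. The 0 lower came from edgeR, DESeq2 gave 0 too, and 1 member was lower at an unadjusted p under 0.05. In Trf1f/f cells 12 members were higher and 1 was lower, beside 2.65% and 0.765% of all genes. With TMPyP4 14 were higher and 3 lower, beside 16.6% and 13.4%. The median log2 fold change of the 35 members was 0.25 after *Rtel1* loss, 0.17 in CA cells, 0.46 in Trf1f/f cells and 0.17 with TMPyP4. Over all genes the medians were -0.03, 0.00, 0.00 and -0.01. The fold change was above 0 for 23, 26, 29 and 23 members in the same order. The counts are not a measure of how alike the comparisons are, since *Rtel1* loss and TMPyP4 share the same 3 +GFP libraries.

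**Figure D1:**
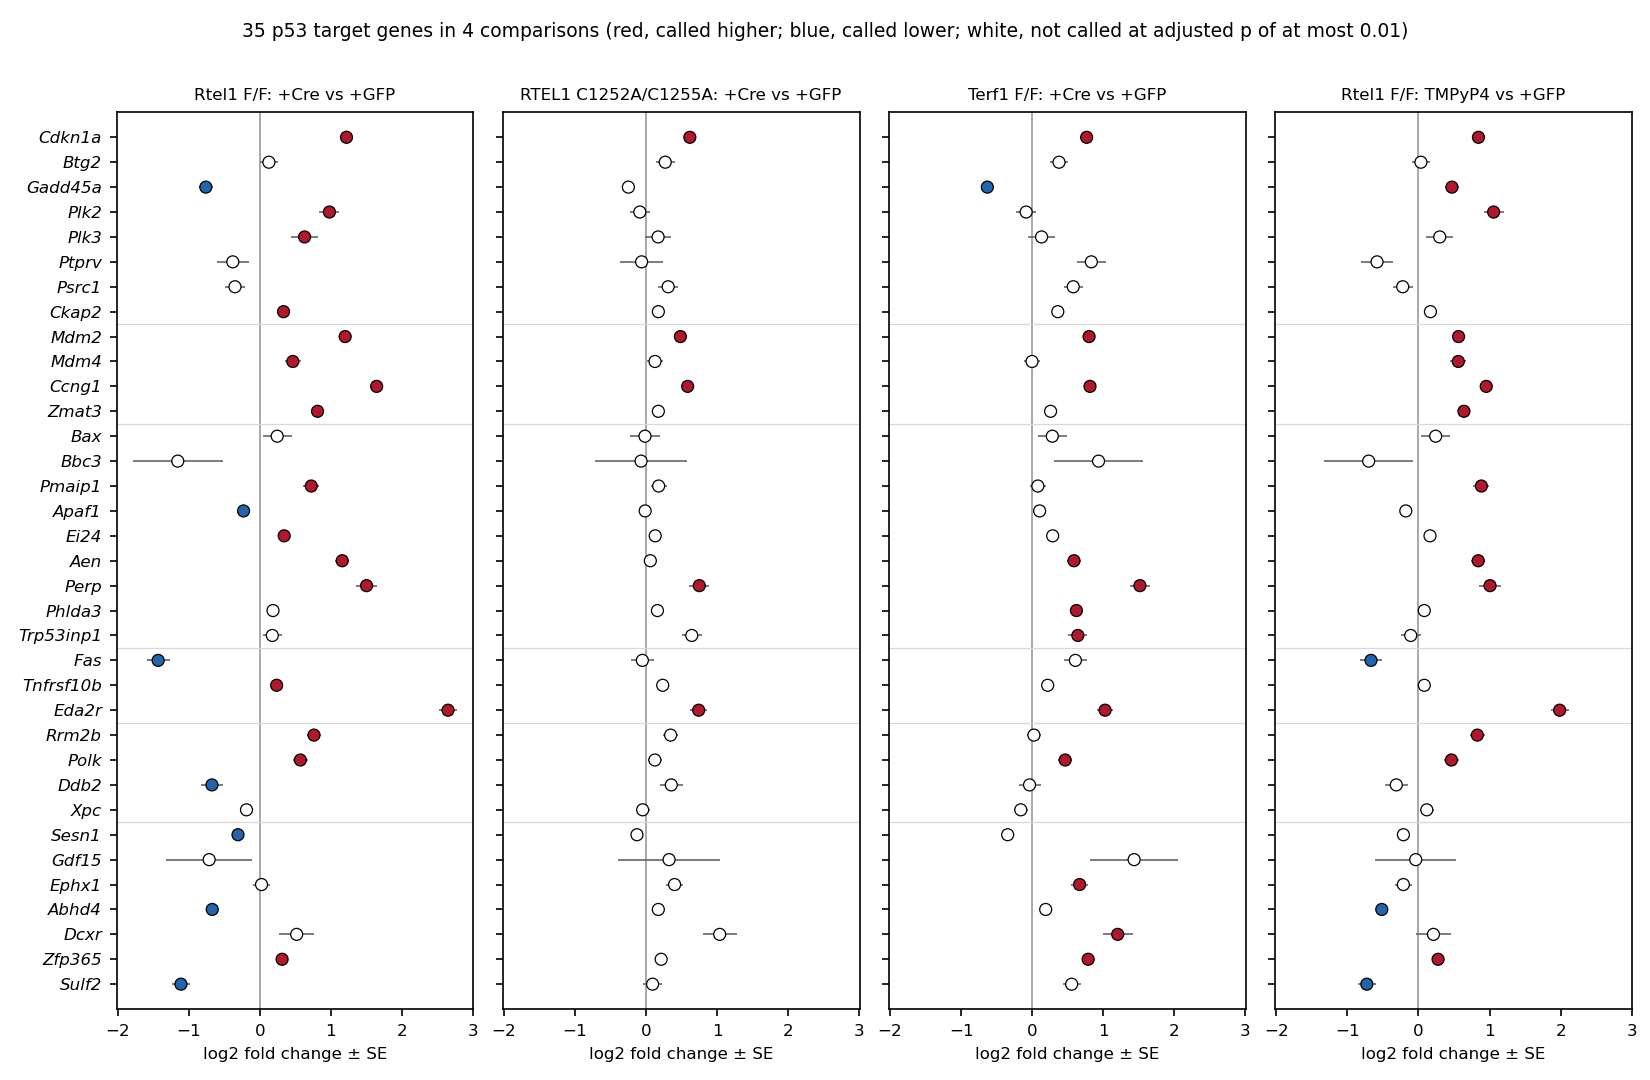
Log2 fold change ± SE of the 35 p53 target genes (vertical axis, grouped by role) in the 4 comparisons, with red for called higher, blue for called lower and white for not called. The 24 calls after *Rtel1* loss run from -1.43 for *Fas* to 2.65 for *Eda2r*, and the 5 calls in CA cells are all above 0.

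Targets called higher in all 3 Cre comparisons numbered 5: *Cdkn1a*, *Mdm2*, *Ccng1*, *Perp* and *Eda2r*. The same 5 were called higher with TMPyP4, and the share of all genes called higher in all 4 comparisons was not counted. A further 3, *Aen*, *Polk* and *Zfp365*, were higher after *Rtel1* loss and in Trf1f/f cells, which made 8. Of all genes 0.16% were called higher in all 3 Cre comparisons and 0.649% in those 2. Another 9 were called higher after *Rtel1* loss and in neither of the other Cre comparisons: *Plk2*, *Plk3*, *Ckap2*, *Mdm4*, *Zmat3*, *Pmaip1*, *Ei24*, *Tnfrsf10b* and *Rrm2b*, beside 21.2% of all genes. *Phlda3*, *Trp53inp1*, *Ephx1* and *Dcxr*, 4 members, were called higher by edgeR in Trf1f/f cells and in none of the other 3 comparisons, where 1.96% of all genes were called higher in Trf1f/f cells alone among the Cre comparisons. A call in 1 comparison and not in another is not a tested difference; the differences themselves are tested in later paragraphs. The count of 5 in CA cells depends on single libraries and on the fit. Without CA +Cre replicate 2 the count was 2, and without CA +Cre replicate 3, CA +GFP replicate 1 or CA +GFP replicate 3 it was 1 each time, the call kept being *Cdkn1a*. With the 6 CA libraries fitted alone the edgeR count was 0. Other fits gave more: DESeq2 called 7, with *Trp53inp1* and *Dcxr* added, and the replicate block, whose numbers pair the CA libraries, called 7, with *Trp53inp1* and *Ephx1* added.

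The feedback genes come first. *Mdm2* encodes the ubiquitin ligase that marks p53 for degradation. *Mdm2* stood at 77.4, 76.2 and 75.0 CPM in the Rtel1f/f +GFP libraries, 163, 187 and 175 with +Cre and 105, 118 and 115 with +GFP +TMPyP4. *Mdm2* was at 117, 129.8 and 129 CPM in CA +GFP, 159, 182 and 186 in CA +Cre, 198, 215 and 214 in Trf1f/f +GFP and 338, 398 and 356 in Trf1f/f +Cre. All +Cre and +TMPyP4 libraries lay above their controls, and CA +GFP also lay above Rtel1f/f +GFP. *Mdm2* log2 fold changes were 1.20 ± 0.079 after *Rtel1* loss (adjusted p = 1.29e-09), 0.48 ± 0.078 in CA cells (adjusted p = 0.00168), 0.80 ± 0.078 in Trf1f/f cells (adjusted p = 2.67e-06) and 0.56 with TMPyP4. The *Mdm2* call in CA cells was lost without CA +Cre replicate 2 or 3 (adjusted p = 0.0195 and 0.0368) or CA +GFP replicate 1 or 3 (0.035 and 0.0184), and with the compared groups fitted alone (0.132). *Mdm4* encodes a relative of the *Mdm2* product that masks the activation domain of p53. *Mdm4* measured 92.5, 93.2 and 83.4 CPM in the Rtel1f/f +GFP libraries, 116, 143 and 112 with +Cre and 118, 152 and 127 with +GFP +TMPyP4. *Mdm4* came to 102, 111 and 109 CPM in CA +GFP, 104, 120.3 and 127 in CA +Cre, 133, 139 and 156 in Trf1f/f +GFP and 142, 158 and 127 in Trf1f/f +Cre. Groups were separate only within the Rtel1f/f line, where +Cre and +TMPyP4 libraries were higher, replicate 2 most of all. *Mdm4* log2 fold changes were 0.47 after *Rtel1* loss and 0.56 with TMPyP4, with no call at 0.13 in CA cells and 0.00 in Trf1f/f cells. The *Mdm4* call after *Rtel1* loss was lost without Rtel1f/f +Cre replicate 2 (adjusted p = 0.0277) or Rtel1f/f +GFP replicate 3 (0.018). The *Mdm4* call with TMPyP4 was lost without Rtel1f/f +GFP replicate 3 (adjusted p = 0.0129). *Ccng1* encodes cyclin G, which brings a phosphatase to the *Mdm2* protein. *Ccng1* stood at 93.0, 84.1 and 82.1 CPM in the Rtel1f/f +GFP libraries, 278, 277 and 256 with +Cre and 159, 172 and 171 with +GFP +TMPyP4. *Ccng1* was at 175, 202 and 171 CPM in CA +GFP, 239, 303 and 282 in CA +Cre, 443, 458 and 466 in Trf1f/f +GFP and 788, 821 and 792 in Trf1f/f +Cre. No +Cre or +TMPyP4 library reached down to its controls, and the Trf1f/f libraries were the highest of all. *Ccng1* log2 fold changes were 1.64 ± 0.084 after *Rtel1* loss (adjusted p = 5.37e-11), 0.59 ± 0.082 in CA cells (adjusted p = 0.000477), 0.81 ± 0.082 in Trf1f/f cells (adjusted p = 3.12e-06) and 0.95 ± 0.082 with TMPyP4 (adjusted p = 1.46e-07). The *Ccng1* call in CA cells was lost without CA +Cre replicate 3 (adjusted p = 0.0116) or CA +GFP replicate 1 or 3 (0.0124 and 0.0138), and with the compared groups fitted alone (0.146). *Zmat3* encodes a zinc finger protein that binds RNA. *Zmat3* measured 48.6, 38.8 and 40.1 CPM in the Rtel1f/f +GFP libraries, 76.7, 75.0 and 72.3 with +Cre and 65.3, 66.2 and 67.2 with +GFP +TMPyP4. *Zmat3* came to 61.3, 67.4 and 67.3 CPM in CA +GFP, 79.5, 70.4 and 71.2 in CA +Cre, 93.4, 90.9 and 97.7 in Trf1f/f +GFP and 109, 113 and 116 in Trf1f/f +Cre. Groups did not overlap in any of the 4 comparisons, though the CA and Trf1f/f gaps were small. *Zmat3* log2 fold changes were 0.81 after *Rtel1* loss and 0.64 with TMPyP4, with no call at 0.17 in CA cells and 0.26 in Trf1f/f cells.

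The arrest genes include *Cdkn1a*, which encodes the p21 inhibitor of cyclin-dependent kinases. *Cdkn1a* stood at 51.0, 49.1 and 53.2 CPM in the Rtel1f/f +GFP libraries, 123, 113 and 121 with +Cre and 92.6, 92.7 and 89.9 with +GFP +TMPyP4. *Cdkn1a* was at 63.3, 64.9 and 64.0 CPM in CA +GFP, 102, 98.9 and 93.7 in CA +Cre, 261, 261 and 238 in Trf1f/f +GFP and 432, 438 and 422 in Trf1f/f +Cre. Replicates were close together, every +Cre group lay above its +GFP group, and +TMPyP4 lay between Rtel1f/f +GFP and +Cre. *Cdkn1a* log2 fold changes were 1.22 ± 0.056 after *Rtel1* loss (adjusted p = 1.6e-11), 0.62 ± 0.055 in CA cells (adjusted p = 6.08e-06), 0.77 in Trf1f/f cells and 0.84 ± 0.055 with TMPyP4 (adjusted p = 5.56e-09). The *Cdkn1a* call in CA cells was lost with the compared groups fitted alone (adjusted p = 0.0839). *Gadd45a* encodes a small nuclear protein of growth arrest and DNA damage. *Gadd45a* measured 44.1, 45.0 and 45.0 CPM in the Rtel1f/f +GFP libraries, 25.0, 30.0 and 24.2 with +Cre and 63.9, 65.4 and 56.5 with +GFP +TMPyP4. *Gadd45a* came to 31.3, 25.0 and 27.1 CPM in CA +GFP, 21.7, 24.5 and 24.1 in CA +Cre, 43.8, 40.6 and 42.6 in Trf1f/f +GFP and 28.0, 29.3 and 24.7 in Trf1f/f +Cre. All +Cre groups lay below their controls and +TMPyP4 alone lay above. *Gadd45a* log2 fold changes were -0.76 ± 0.095 after *Rtel1* loss (adjusted p = 2.94e-06), -0.63 ± 0.095 in Trf1f/f cells (adjusted p = 0.00027) and 0.47 with TMPyP4, with no call at -0.25 in CA cells. *Plk2* encodes a polo-like kinase of the centrosome cycle. *Plk2* stood at 462, 281 and 299 CPM in the Rtel1f/f +GFP libraries, 603, 765 and 690.2 with +Cre and 705, 777 and 688 with +GFP +TMPyP4. *Plk2* was at 897, 870.5 and 961 CPM in CA +GFP, 832, 860.0 and 877 in CA +Cre, 403, 425 and 387 in Trf1f/f +GFP and 333, 403 and 409 in Trf1f/f +Cre. Rtel1f/f +GFP was the low group, with replicate 1 above the other replicates, and all other groups of that line were higher without overlap. CA and Trf1f/f groups overlapped across Cre. *Plk2* log2 fold changes were 0.98 after *Rtel1* loss and 1.06 ± 0.14 with TMPyP4 (adjusted p = 1.27e-05), with no call at -0.09 in CA cells and -0.09 in Trf1f/f cells.

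*Plk3* encodes another polo-like kinase that responds to stress. *Plk3* measured 10.5, 10.6 and 10.1 CPM in the Rtel1f/f +GFP libraries, 17.9, 11.6 and 18.7 with +Cre and 13.2, 11.7 and 13.4 with +GFP +TMPyP4. *Plk3* came to 18.3, 10.9 and 16.5 CPM in CA +GFP, 19.5, 13.2 and 18.8 in CA +Cre, 13.7, 13.2 and 11.1 in Trf1f/f +GFP and 12.8, 13.8 and 15.0 in Trf1f/f +Cre. Rtel1f/f +Cre and +TMPyP4 were above the controls, with replicate 2 the lowest of each, and the CA and Trf1f/f groups overlapped. *Plk3* log2 fold change was 0.63 after *Rtel1* loss, with no call at 0.17 in CA cells, 0.13 in Trf1f/f cells and 0.30 with TMPyP4. The *Plk3* call after *Rtel1* loss was lost without Rtel1f/f +Cre replicate 1 or 3 (adjusted p = 0.0358 and 0.0307) or Rtel1f/f +GFP replicate 1, 2 or 3 (0.0201, 0.0124 and 0.0179), and with the compared groups fitted alone (0.0186). *Ckap2* encodes a microtubule protein of the mitotic spindle. *Ckap2* stood at 89.3, 91.9 and 90.1 CPM in the Rtel1f/f +GFP libraries, 105, 120.5 and 116 with +Cre and 92.8, 106 and 106 with +GFP +TMPyP4. *Ckap2* was at 105, 121 and 114 CPM in CA +GFP, 117, 133 and 134 in CA +Cre, 109, 125 and 128 in Trf1f/f +GFP and 149, 171 and 144 in Trf1f/f +Cre. Only the CA groups overlapped, and the gaps elsewhere were small beside the levels. *Ckap2* log2 fold change was 0.33 after *Rtel1* loss, with no call at 0.17 in CA cells, 0.36 in Trf1f/f cells and 0.17 with TMPyP4. By DESeq2 *Ckap2* was called higher in Trf1f/f cells (adjusted p = 0.00986). The *Ckap2* call after *Rtel1* loss was lost without Rtel1f/f +Cre replicate 2 or 3 (adjusted p = 0.031 and 0.0155) or Rtel1f/f +GFP replicate 1, 2 or 3 (0.012, 0.0138 and 0.0184).

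**Figure D2:**
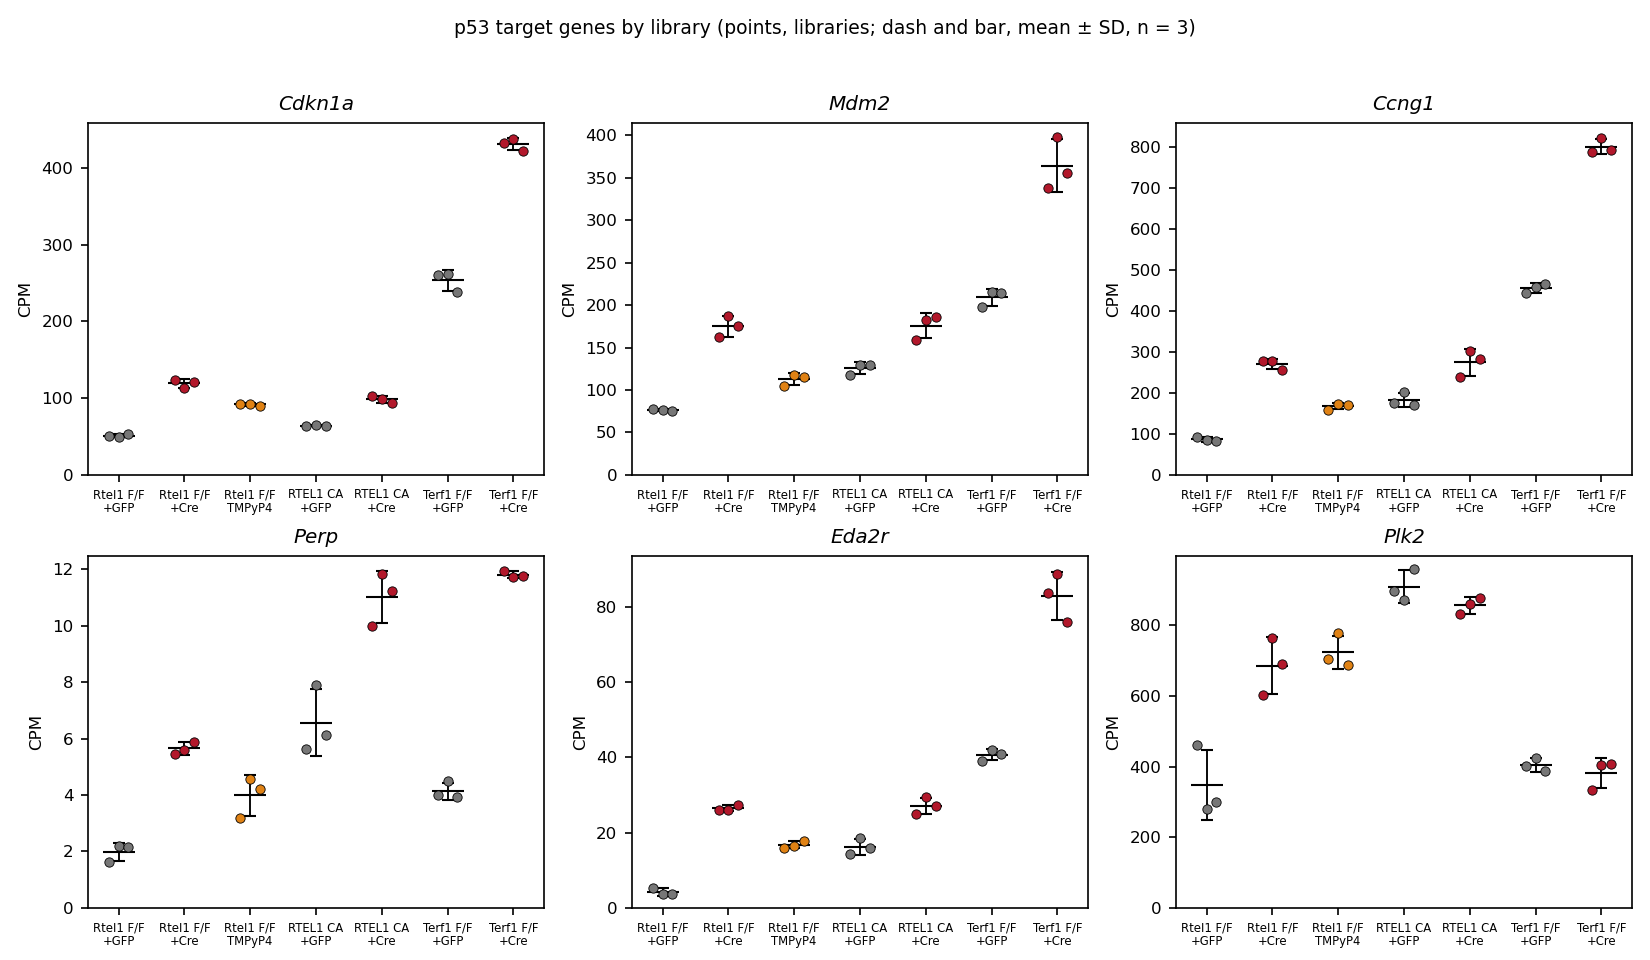
CPM of *Cdkn1a*, *Mdm2*, *Ccng1*, *Perp*, *Eda2r* and *Plk2* in each library of the 7 groups (points), with the group mean ± SD (n = 3). For the first 5 genes every +Cre library lies above its +GFP libraries, whereas for *Plk2* that is so in Rtel1f/f cells only.

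Of 9 genes of the mitochondrial and nuclear death programme edgeR called 4 higher and 1 lower after *Rtel1* loss. It called 1 higher and 0 lower in CA cells, 4 and 0 in Trf1f/f cells and 3 and 0 with TMPyP4. All genes stood at 22.0% and 21%, 0.525% and 0.569%, 2.65% and 0.765%, and 16.6% and 13.4%. *Pmaip1* encodes Noxa, a BH3-only protein. *Pmaip1* measured 22.9, 25.3 and 23.6 CPM in the Rtel1f/f +GFP libraries, 35.1, 44.3 and 39.3 with +Cre and 40.4, 47.7 and 44.5 with +GFP +TMPyP4. *Pmaip1* came to 32.2, 34.98 and 35.7 CPM in CA +GFP, 34.0, 41.0 and 41.4 in CA +Cre, 74.7, 87.3 and 88.8 in Trf1f/f +GFP and 81.3, 104 and 79.3 in Trf1f/f +Cre. Rtel1f/f +GFP was the low group of its line, and the CA and Trf1f/f groups overlapped across Cre. *Pmaip1* log2 fold changes were 0.72 after *Rtel1* loss and 0.89 ± 0.11 with TMPyP4 (adjusted p = 9.91e-06), with no call at 0.18 in CA cells and 0.08 in Trf1f/f cells. *Apaf1* encodes the scaffold of the apoptosome. *Apaf1* stood at 101, 104 and 97.3 CPM in the Rtel1f/f +GFP libraries, 82.4, 93.5 and 82.4 with +Cre and 88.8, 91.5 and 87.0 with +GFP +TMPyP4. *Apaf1* was at 82.3, 89.3 and 80.3 CPM in CA +GFP, 83.8, 87.0 and 79.1 in CA +Cre, 119, 121 and 130.2 in Trf1f/f +GFP and 136, 136 and 125 in Trf1f/f +Cre. Rtel1f/f +GFP was above +Cre and +TMPyP4 by a narrow margin, and the other pairs overlapped. *Apaf1* log2 fold change was -0.23 after *Rtel1* loss, with no call at -0.01 in CA cells, 0.10 in Trf1f/f cells and -0.18 with TMPyP4. The *Apaf1* call after *Rtel1* loss was lost without Rtel1f/f +Cre replicate 1 or 3 (adjusted p = 0.0318 and 0.0878) or Rtel1f/f +GFP replicate 1, 2 or 3 (0.0175, 0.0963 and 0.0325), and with DESeq2 size factors (0.0258), with DESeq2 (0.0168), with no filter (0.0317) and with the compared groups fitted alone (0.0389). *Ei24* encodes a membrane protein of the endoplasmic reticulum. *Ei24* measured 81.6, 79.7 and 82.0 CPM in the Rtel1f/f +GFP libraries, 96.4, 113 and 99.1 with +Cre and 89.7, 94.0 and 88.7 with +GFP +TMPyP4. *Ei24* came to 94.1, 110.2 and 99.0 CPM in CA +GFP, 104, 122 and 106 in CA +Cre, 94.0, 98.5 and 98.3 in Trf1f/f +GFP and 115, 121 and 118 in Trf1f/f +Cre. The CA groups overlapped, and elsewhere the groups were apart. *Ei24* log2 fold change was 0.34 after *Rtel1* loss, with no call at 0.13 in CA cells, 0.29 in Trf1f/f cells and 0.16 with TMPyP4. The *Ei24* call after *Rtel1* loss was lost without Rtel1f/f +Cre replicate 2 (adjusted p = 0.0196) or Rtel1f/f +GFP replicate 2 (0.01).

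*Aen* encodes a nuclease that acts in apoptosis. *Aen* stood at 20.7, 15.6 and 17.1 CPM in the Rtel1f/f +GFP libraries, 41.0, 35.3 and 43.2 with +Cre and 30.4, 30.3 and 35.03 with +GFP +TMPyP4. *Aen* was at 41.5, 40.1 and 41.9 CPM in CA +GFP, 46.2, 39.3 and 43.4 in CA +Cre, 63.4, 62.3 and 59.1 in Trf1f/f +GFP and 90.4, 93.7 and 93.6 in Trf1f/f +Cre. CA +GFP and CA +Cre overlapped at the level of Rtel1f/f +Cre, and in the other comparisons the groups were apart. *Aen* log2 fold changes were 1.16 ± 0.097 after *Rtel1* loss (adjusted p = 2.38e-08), 0.59 in Trf1f/f cells and 0.84 with TMPyP4, with no call at 0.06 in CA cells. *Perp* encodes a tetraspan protein of the cell membrane. *Perp* measured 1.62, 2.20 and 2.14 CPM in the Rtel1f/f +GFP libraries, 5.45, 5.61 and 5.90 with +Cre and 3.17, 4.58 and 4.23 with +GFP +TMPyP4. *Perp* came to 5.64, 7.90 and 6.14 CPM in CA +GFP, 10.0, 11.8 and 11.2 in CA +Cre, 3.99, 4.48 and 3.92 in Trf1f/f +GFP and 12.0, 11.7 and 11.8 in Trf1f/f +Cre. Levels were low in Rtel1f/f +GFP, higher in all 3 +Cre groups than in their controls, and highest in CA +Cre and Trf1f/f +Cre. *Perp* log2 fold changes were 1.50 ± 0.15 after *Rtel1* loss (adjusted p = 1.77e-07), 0.75 ± 0.14 in CA cells (adjusted p = 0.00459), 1.52 ± 0.14 in Trf1f/f cells (adjusted p = 1.84e-06) and 1.01 ± 0.15 with TMPyP4 (adjusted p = 4.07e-05). The *Perp* call in CA cells was lost without CA +Cre replicate 2 or 3 (adjusted p = 0.0303 and 0.0372) or CA +GFP replicate 1 or 3 (0.0506 and 0.0453), and with the compared groups fitted alone (0.151). *Phlda3* encodes an inhibitor of the kinase Akt. *Phlda3* stood at 42.8, 39.2 and 45.8 CPM in the Rtel1f/f +GFP libraries, 50.8, 42.5 and 52.2 with +Cre and 45.3, 43.6 and 46.4 with +GFP +TMPyP4. *Phlda3* was at 38.1, 35.9 and 40.0 CPM in CA +GFP, 46.0, 38.5 and 43.0 in CA +Cre, 79.0, 81.2 and 70.4 in Trf1f/f +GFP and 121, 117 and 117 in Trf1f/f +Cre. Only the Trf1f/f groups were apart. *Phlda3* log2 fold change was 0.62 in Trf1f/f cells, with no call at 0.19 after *Rtel1* loss, 0.16 in CA cells and 0.08 with TMPyP4. *Trp53inp1* encodes a stress-induced nuclear cofactor of p53. *Trp53inp1* measured 23.0, 35.9 and 29.2 CPM in the Rtel1f/f +GFP libraries, 31.7, 35.9 and 32.0 with +Cre and 26.0, 30.0 and 25.7 with +GFP +TMPyP4. *Trp53inp1* came to 19.2, 21.9 and 21.3 CPM in CA +GFP, 27.5, 35.4 and 34.8 in CA +Cre, 125, 129 and 139 in Trf1f/f +GFP and 207, 233 and 173 in Trf1f/f +Cre. Groups were apart in CA and Trf1f/f cells and overlapped within Rtel1f/f cells, where replicate 2 of the +GFP group was level with the highest +Cre library. *Trp53inp1* log2 fold change was 0.64 in Trf1f/f cells, with no call at 0.18 after *Rtel1* loss, 0.64 in CA cells and -0.11 with TMPyP4. The *Trp53inp1* call in Trf1f/f cells was lost without Trf1f/f +Cre replicate 1 or 2 (adjusted p = 0.038 and 0.0602) or Trf1f/f +GFP replicate 1, 2 or 3 (0.0314, 0.0458 and 0.0166). In CA cells *Trp53inp1* was called higher by DESeq2 (adjusted p = 0.0023) and with the replicate block (0.00412), and also without CA +Cre replicate 1, at 0.75 (adjusted p = 0.00695).

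After *Rtel1* loss the death receptors went opposite ways. *Fas* encodes the receptor CD95. *Fas* stood at 29.0, 42.8 and 41.4 CPM in the Rtel1f/f +GFP libraries, 12.4, 15.1 and 14.6 with +Cre and 21.2, 25.2 and 24.9 with +GFP +TMPyP4. *Fas* was at 11.7, 15.0 and 14.5 CPM in CA +GFP, 10.0, 15.3 and 14.5 in CA +Cre, 6.61, 7.19 and 7.47 in Trf1f/f +GFP and 10.8, 12.1 and 9.50 in Trf1f/f +Cre. Rtel1f/f +GFP stood above every other group of the 7, replicate 1 being its lowest, and +TMPyP4 lay between it and +Cre. *Fas* log2 fold changes were -1.43 ± 0.16 after *Rtel1* loss (adjusted p = 9.36e-07) and -0.67 ± 0.16 with TMPyP4 (adjusted p = 0.00262), with no call at -0.05 in CA cells and 0.61 in Trf1f/f cells. The *Fas* call with TMPyP4 was lost without Rtel1f/f +GFP replicate 2 or 3 (adjusted p = 0.0241 and 0.0189) or +TMPyP4 replicate 1 (0.0149). *Tnfrsf10b* encodes the mouse receptor of the ligand TRAIL. *Tnfrsf10b* measured 60.7, 55.6 and 56.8 CPM in the Rtel1f/f +GFP libraries, 68.3, 70.6 and 65.2 with +Cre and 62.6, 61.5 and 59.2 with +GFP +TMPyP4. *Tnfrsf10b* came to 58.5, 62.2 and 59.2 CPM in CA +GFP, 67.4, 75.4 and 69.2 in CA +Cre, 95.5, 91.1 and 96.5 in Trf1f/f +GFP and 104, 107 and 118 in Trf1f/f +Cre. All +Cre groups were above their controls, and +TMPyP4 overlapped Rtel1f/f +GFP. *Tnfrsf10b* log2 fold change was 0.24 after *Rtel1* loss, with no call at 0.24 in CA cells, 0.22 in Trf1f/f cells and 0.08 with TMPyP4. The *Tnfrsf10b* call after *Rtel1* loss was lost without Rtel1f/f +Cre replicate 2 (adjusted p = 0.0401) or Rtel1f/f +GFP replicate 2 or 3 (0.0302 and 0.0247), and with the compared groups fitted alone (0.0304). *Eda2r* encodes a receptor of ectodysplasin. *Eda2r* stood at 5.32, 3.76 and 3.61 CPM in the Rtel1f/f +GFP libraries, 26.1, 25.9 and 27.4 with +Cre and 16.0, 16.4 and 17.8 with +GFP +TMPyP4. *Eda2r* was at 14.2, 18.5 and 15.9 CPM in CA +GFP, 25.0, 29.4 and 27.0 in CA +Cre, 39.1, 42.1 and 40.9 in Trf1f/f +GFP and 83.7, 88.7 and 76.0 in Trf1f/f +Cre. No libraries overlapped in any of the 4 comparisons, and the controls of the Rtel1f/f line were the lowest of all. *Eda2r* log2 fold changes were 2.65 ± 0.13 after *Rtel1* loss (adjusted p = 2.7e-11), 0.74 ± 0.12 in CA cells (adjusted p = 0.00146), 1.02 ± 0.12 in Trf1f/f cells (adjusted p = 1.08e-05) and 1.99 ± 0.13 with TMPyP4 (adjusted p = 4.29e-09). The *Eda2r* call in CA cells was lost without CA +Cre replicate 2 or 3 (adjusted p = 0.0132 and 0.0127) or CA +GFP replicate 1 or 3 (0.0184 and 0.0157), and with the compared groups fitted alone (0.121).

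Of the 4 DNA repair genes edgeR called 3 after *Rtel1* loss, 0 in CA cells, 1 in Trf1f/f cells and 2 with TMPyP4. The shares of all genes called higher and lower were 22.0% and 21%, 0.525% and 0.569%, 2.65% and 0.765%, and 16.6% and 13.4% in that order. *Rrm2b* encodes a small subunit of ribonucleotide reductase. *Rrm2b* measured 26.9, 27.4 and 23.9 CPM in the Rtel1f/f +GFP libraries, 40.7, 48.9 and 43.0 with +Cre and 43.6, 46.8 and 48.4 with +GFP +TMPyP4. *Rrm2b* came to 26.1, 31.1 and 28.7 CPM in CA +GFP, 31.0, 40.1 and 38.2 in CA +Cre, 25.7, 28.7 and 28.8 in Trf1f/f +GFP and 26.8, 31.2 and 26.5 in Trf1f/f +Cre. Within Rtel1f/f cells +Cre and +TMPyP4 lay above +GFP, and in CA and Trf1f/f cells the groups overlapped. *Rrm2b* log2 fold changes were 0.76 after *Rtel1* loss and 0.83 with TMPyP4, with no call at 0.35 in CA cells and 0.02 in Trf1f/f cells. *Polk* encodes a translesion DNA polymerase. *Polk* stood at 34.8, 34.6 and 31.5 CPM in the Rtel1f/f +GFP libraries, 44.4, 55.5 and 50.1 with +Cre and 41.1, 50.8 and 47.2 with +GFP +TMPyP4. *Polk* was at 36.3, 42.7 and 40.9 CPM in CA +GFP, 39.7, 46.0 and 45.0 in CA +Cre, 41.6, 45.6 and 47.0 in Trf1f/f +GFP and 62.2, 68.5 and 54.4 in Trf1f/f +Cre. Only the CA groups overlapped, and replicate 1 was the lowest of most groups. *Polk* log2 fold changes were 0.57 after *Rtel1* loss, 0.46 in Trf1f/f cells and 0.46 with TMPyP4, with no call at 0.12 in CA cells. The *Polk* call in Trf1f/f cells was lost without Trf1f/f +Cre replicate 1 or 2 (adjusted p = 0.065 and 0.104) or Trf1f/f +GFP replicate 1, 2 or 3 (0.0474, 0.0567 and 0.0209), and with DESeq2 size factors (0.0181), with no filter (0.0145) and with the compared groups fitted alone (0.0207). The *Polk* call with TMPyP4 was lost without Rtel1f/f +GFP replicate 2 or 3 (adjusted p = 0.0131 and 0.0267) or +TMPyP4 replicate 2 (0.0119). *Ddb2* encodes the subunit that recognizes ultraviolet damage. *Ddb2* measured 5.01, 6.25 and 6.87 CPM in the Rtel1f/f +GFP libraries, 3.99, 3.92 and 3.47 with +Cre and 4.25, 4.99 and 5.35 with +GFP +TMPyP4. *Ddb2* came to 2.93, 3.45 and 3.15 CPM in CA +GFP, 2.92, 4.32 and 4.98 in CA +Cre, 7.70, 9.08 and 8.76 in Trf1f/f +GFP and 8.58, 8.66 and 7.63 in Trf1f/f +Cre. Counts were low, Rtel1f/f +GFP had the highest mean of its line, and the groups overlapped except after *Rtel1* loss. *Ddb2* log2 fold change was -0.67 ± 0.16 after *Rtel1* loss (adjusted p = 0.00171), with no call at 0.36 in CA cells, -0.04 in Trf1f/f cells and -0.31 with TMPyP4. The *Ddb2* call after *Rtel1* loss was lost without Rtel1f/f +Cre replicate 3 (adjusted p = 0.0138) or Rtel1f/f +GFP replicate 2 or 3 (0.0111 and 0.0186).

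Of the 7 members of metabolism and of the secreted and surface proteins, 6 were called in at least 1 comparison. The share of all genes called in at least 1 of them was not counted. By edgeR 4 of the 7 members were called after *Rtel1* loss, 0 in CA cells, 3 in Trf1f/f cells and 3 with TMPyP4. Beside them, all genes were called higher and lower at 22.0% and 21%, 0.525% and 0.569%, 2.65% and 0.765%, and 16.6% and 13.4%. *Sesn1* encodes a sestrin, a stress sensor that holds back mTORC1 signalling. *Sesn1* stood at 31.5, 39.1 and 38.2 CPM in the Rtel1f/f +GFP libraries, 27.8, 31.3 and 28.9 with +Cre and 30.4, 33.1 and 30.5 with +GFP +TMPyP4. *Sesn1* was at 31.0, 35.3 and 34.5 CPM in CA +GFP, 28.1, 33.9 and 30.3 in CA +Cre, 27.6, 28.0 and 27.7 in Trf1f/f +GFP and 22.1, 22.4 and 21.1 in Trf1f/f +Cre. The gaps were narrow, and the groups were apart after *Rtel1* loss and in Trf1f/f cells. *Sesn1* log2 fold change was -0.31 ± 0.086 after *Rtel1* loss (adjusted p = 0.00565), with no call at -0.13 in CA cells, -0.35 in Trf1f/f cells and -0.21 with TMPyP4. The *Sesn1* call after *Rtel1* loss was lost without Rtel1f/f +Cre replicate 1 or 3 (adjusted p = 0.028 and 0.0466) or Rtel1f/f +GFP replicate 2 or 3 (0.0939 and 0.0695), and with DESeq2 size factors (0.0158), with DESeq2 (0.011), with no filter (0.0161) and with the compared groups fitted alone (0.0425). With TMPyP4 *Sesn1* was called lower without Rtel1f/f +GFP replicate 1, at -0.30 (adjusted p = 0.00823). *Ephx1* encodes microsomal epoxide hydrolase. *Ephx1* measured 35.8, 44.4 and 44.6 CPM in the Rtel1f/f +GFP libraries, 37.4, 44.4 and 45.3 with +Cre and 31.8, 39.2 and 36.7 with +GFP +TMPyP4. *Ephx1* came to 27.1, 34.6 and 33.9 CPM in CA +GFP, 37.5, 46.1 and 42.8 in CA +Cre, 92.4, 108 and 107 in Trf1f/f +GFP and 156, 175 and 157 in Trf1f/f +Cre. CA and Trf1f/f cells had +Cre above +GFP, and the Rtel1f/f groups overlapped. *Ephx1* log2 fold change was 0.67 in Trf1f/f cells, with no call at 0.03 after *Rtel1* loss, 0.40 in CA cells and -0.21 with TMPyP4. The *Ephx1* call in Trf1f/f cells was lost without Trf1f/f +Cre replicate 2 (adjusted p = 0.0147) or Trf1f/f +GFP replicate 1 (0.0101). With the replicate block *Ephx1* was called higher in CA cells (adjusted p = 0.000935). *Abhd4* encodes a lipase of N-acyl phospholipids. *Abhd4* stood at 46.3, 61.8 and 57.6 CPM in the Rtel1f/f +GFP libraries, 35.01, 35.8 and 33.5 with +Cre and 39.1, 39.8 and 37.0 with +GFP +TMPyP4. *Abhd4* was at 34.0, 34.3 and 36.6 CPM in CA +GFP, 38.9, 41.8 and 37.6 in CA +Cre, 92.1, 92.4 and 96.1 in Trf1f/f +GFP and 107, 108 and 106 in Trf1f/f +Cre. Rtel1f/f +GFP lay above +Cre and +TMPyP4, whereas in CA and Trf1f/f cells +Cre lay above +GFP. *Abhd4* log2 fold changes were -0.67 ± 0.079 after *Rtel1* loss (adjusted p = 1.4e-06) and -0.52 ± 0.078 with TMPyP4 (adjusted p = 4.89e-05), with no call at 0.17 in CA cells and 0.19 in Trf1f/f cells.

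*Dcxr* encodes a carbonyl reductase. *Dcxr* measured 1.09, 1.56 and 1.80 CPM in the Rtel1f/f +GFP libraries, 2.61, 1.29 and 2.51 with +Cre and 1.93, 1.59 and 1.67 with +GFP +TMPyP4. *Dcxr* came to 1.59, 1.25 and 1.44 CPM in CA +GFP, 3.72, 2.55 and 2.51 in CA +Cre, 8.49, 6.50 and 6.30 in Trf1f/f +GFP and 17.0, 14.4 and 17.6 in Trf1f/f +Cre. Levels were low in the Rtel1f/f line, where +GFP and +Cre overlapped, and apart in CA and Trf1f/f cells. *Dcxr* log2 fold change was 1.20 ± 0.21 in Trf1f/f cells (adjusted p = 0.00117), with no call at 0.52 after *Rtel1* loss, 1.04 in CA cells and 0.21 with TMPyP4. The *Dcxr* call in Trf1f/f cells was lost without Trf1f/f +GFP replicate 3 (adjusted p = 0.0117). By DESeq2 *Dcxr* was called higher in CA cells (adjusted p = 0.00148). *Dcxr* was called higher after *Rtel1* loss without Rtel1f/f +Cre replicate 2, at 0.76 (adjusted p = 0.00597). *Zfp365* encodes a zinc finger protein. *Zfp365* stood at 20.3, 20.97 and 19.1 CPM in the Rtel1f/f +GFP libraries, 24.3, 25.0 and 25.8 with +Cre and 22.9, 25.7 and 24.5 with +GFP +TMPyP4. *Zfp365* was at 17.5, 18.3 and 18.9 CPM in CA +GFP, 20.1, 21.8 and 21.4 in CA +Cre, 42.5, 44.2 and 45.9 in Trf1f/f +GFP and 75.3, 79.3 and 74.2 in Trf1f/f +Cre. Groups were apart in all 4 comparisons, most widely in Trf1f/f cells. *Zfp365* log2 fold changes were 0.31 after *Rtel1* loss, 0.79 ± 0.061 in Trf1f/f cells (adjusted p = 3.19e-07) and 0.28 with TMPyP4, with no call at 0.21 in CA cells. The *Zfp365* call after *Rtel1* loss was lost with the compared groups fitted alone (adjusted p = 0.0158). The *Zfp365* call with TMPyP4 was lost without Rtel1f/f +GFP replicate 2 or 3 (adjusted p = 0.0119 and 0.0451) or +TMPyP4 replicate 2 (0.0132), and with the compared groups fitted alone (0.0233). *Sulf2* encodes an extracellular sulfatase of heparan sulfate. *Sulf2* measured 76.8, 80.4 and 78.4 CPM in the Rtel1f/f +GFP libraries, 41.8, 30.8 and 36.7 with +Cre and 52.2, 43.8 and 46.4 with +GFP +TMPyP4. *Sulf2* came to 30.8, 22.9 and 26.3 CPM in CA +GFP, 34.5, 25.1 and 25.8 in CA +Cre, 185, 163 and 158 in Trf1f/f +GFP and 264, 232 and 246 in Trf1f/f +Cre. Rtel1f/f +GFP lay above the rest of its line, and Trf1f/f +Cre lay above Trf1f/f +GFP. *Sulf2* log2 fold changes were -1.11 ± 0.13 after *Rtel1* loss (adjusted p = 1.35e-06) and -0.73 ± 0.13 with TMPyP4 (adjusted p = 0.000221), with no call at 0.09 in CA cells and 0.55 in Trf1f/f cells. In Trf1f/f cells *Sulf2* was called higher by DESeq2 (adjusted p = 0.000305), with DESeq2 size factors (0.00616), with no filter (0.00759) and with the compared groups fitted alone (0.00565).

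**Figure D3:**
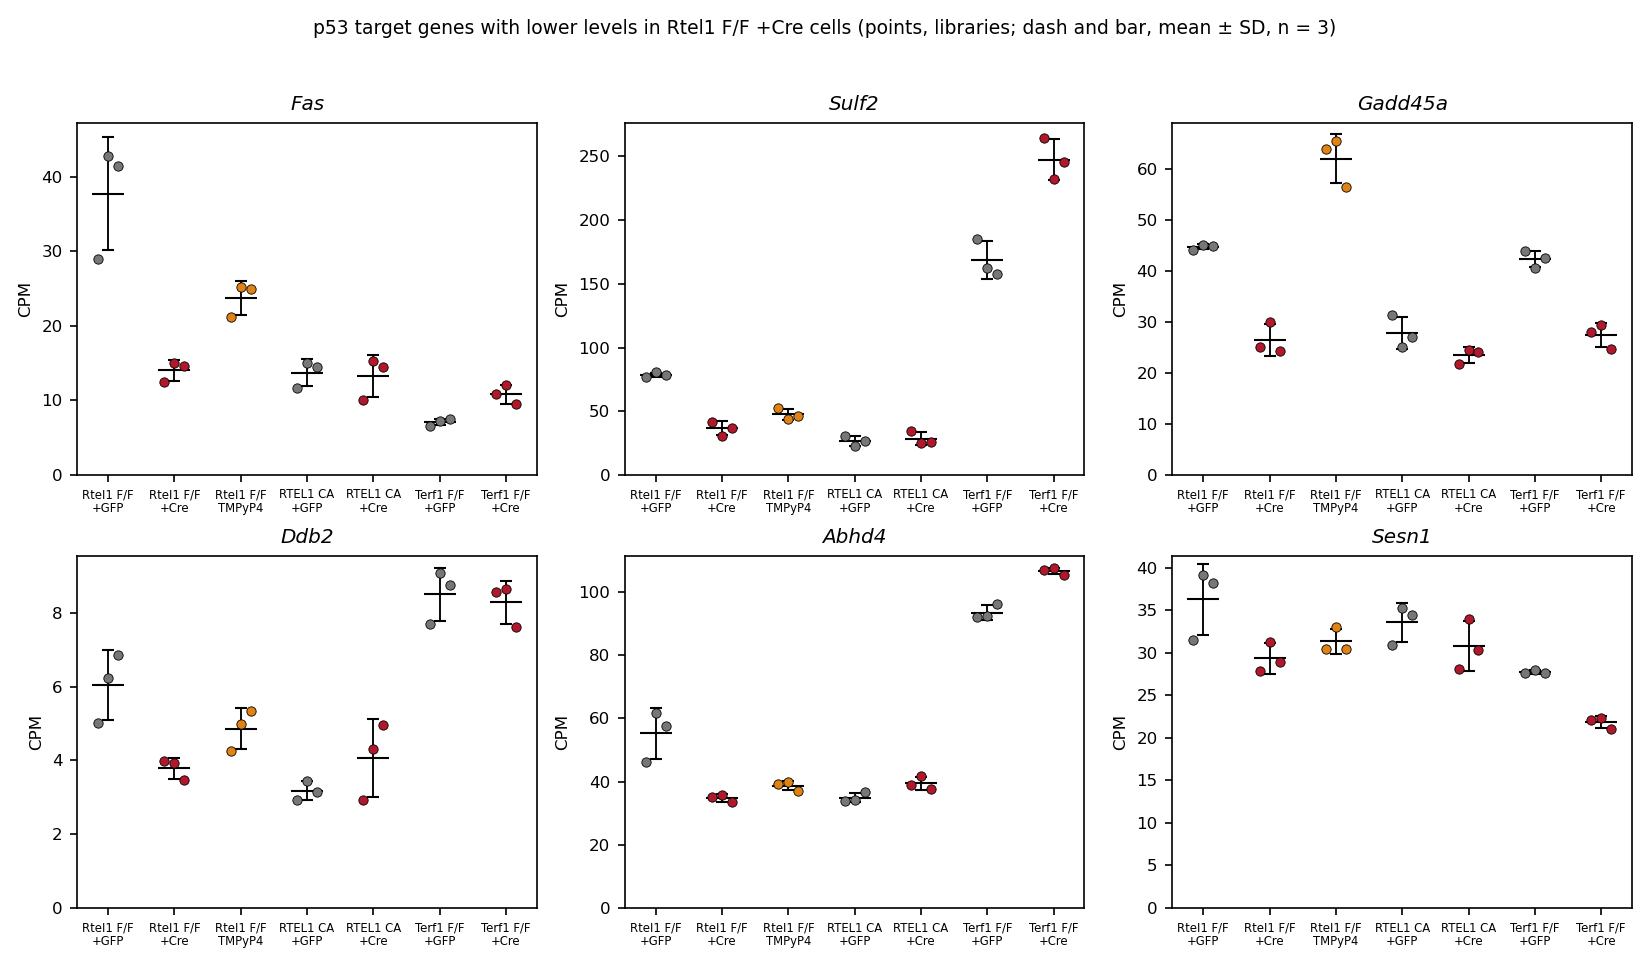
CPM of *Fas*, *Sulf2*, *Gadd45a*, *Ddb2*, *Abhd4* and *Sesn1* in each library of the 7 groups (points), with the group mean ± SD (n = 3). For all 6 the Rtel1f/f +GFP libraries lie above the Rtel1f/f +Cre libraries, and for *Fas* they reach 42.8 CPM against at most 15.1.

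The 7 members that edgeR called in none of the 4 comparisons are given by the range of their group means. The share of all genes called in none of the 4 was not counted. *Bax*, which forms the mitochondrial pore, ran from 47.4 to 105 CPM, and *Bbc3*, the BH3-only protein Puma, from 3.34 to 10.5. *Btg2*, an antiproliferative gene, ran from 43.7 to 166, *Psrc1*, a spindle protein, from 12.2 to 66.5, and *Xpc*, which recognizes damaged DNA, from 10.8 to 14.2. *Ptprv*, a receptor-type phosphatase that RefSeq lists as a transcribed pseudogene, ran from 0.423 to 5.58 and the secreted factor *Gdf15* from 0.291 to 1.08. Log2 fold changes after *Rtel1* loss were 0.25 for *Bax*, -1.15 for *Bbc3*, 0.13 for *Btg2*, -0.35 for *Psrc1*, -0.19 for *Xpc*, -0.38 for *Ptprv* and -0.71 for *Gdf15*. In Trf1f/f cells they were 0.28, 0.93, 0.38, 0.58, -0.16, 0.83 and 1.43 in the same order. Without Rtel1f/f +Cre replicate 1, *Ptprv* was called lower after *Rtel1* loss, at -0.76 (adjusted p = 0.00425). DESeq2 called *Ptprv* (adjusted p = 0.00234) and *Psrc1* (0.000486) higher in Trf1f/f cells. Replicate 2 was the lowest library for both *Bax* and *Bbc3* in Rtel1f/f +Cre, +TMPyP4, CA +GFP and CA +Cre: *Bax* was at 63.1, 37.3 and 68.1 CPM in Rtel1f/f +Cre and *Bbc3* at 6.39, 1.46 and 4.09. With Rtel1f/f +GFP, *Bbc3* was at 8.75, 8.26 and 9.62, above all +Cre libraries of the Rtel1f/f and CA cells. Its edgeR test after *Rtel1* loss gave adjusted p = 0.133.

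Against CA +GFP in place of Rtel1f/f +GFP, Rtel1f/f +Cre had 9 members higher and 0 lower, beside 3.80% and 3.95% of all genes, where the first controls had given 17 and 7. The 0 is an edgeR count, DESeq2 and the replicate block were not run with these controls, and at an unadjusted p under 0.05 2 members were lower. Whether replicate numbers pair Rtel1f/f +Cre or +TMPyP4 with CA +GFP was not checked. Compared by number with CA +GFP, many members without a call kept the same direction in every Rtel1f/f +Cre library. *Sesn1* and *Plk2* were among those lower, and *Polk*, *Ephx1*, *Zmat3* and *Sulf2* among those higher. Neither such members nor their share of all genes were counted. Called higher with both sets of controls were 6: *Cdkn1a* (1.22 and 0.89), *Mdm2* (1.20 and 0.48), *Ccng1* (1.64 and 0.56), *Eda2r* (2.65 and 0.71), *Rrm2b* (0.76 and 0.63) and *Zfp365* (0.31 and 0.46). The share of all genes called higher with both sets was not counted. *Ptprv*, *Phlda3* and *Trp53inp1* were called against CA +GFP alone, at 1.67 ± 0.26 (adjusted p = 0.000205), 0.35 and 0.67 ± 0.14 (adjusted p = 0.00262). Of the 5 genes higher in all Cre comparisons, *Perp* dropped out, at -0.21 against CA +GFP, which left 4. *Perp*, *Aen* and *Plk2* were already high in CA +GFP, and against it *Aen* stood at -0.05 and *Plk2* at -0.41. The calls of all 7 falls were lost, with *Fas* at 0.03 and *Sulf2* at 0.45, which does not show that every fall was absent. For 4 of the 6 members called with both sets of controls the tests against CA +GFP were 0.89 ± 0.055 (adjusted p = 3.73e-09) for *Cdkn1a*, 0.71 ± 0.12 (adjusted p = 0.000364) for *Eda2r*, 0.63 ± 0.10 (adjusted p = 0.000345) for *Rrm2b* and 0.56 ± 0.082 (adjusted p = 9.7e-05) for *Ccng1*.

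TMPyP4 against CA +GFP gave 8 members higher and 2 lower, beside 9.94% and 7.07% of all genes, where the first controls had given 14 and 3. Higher with both controls were 4: *Cdkn1a* at 0.52, *Gadd45a* at 1.15 ± 0.096 (adjusted p = 9.04e-08), *Rrm2b* at 0.69 ± 0.10 (adjusted p = 6.88e-05) and *Zfp365* at 0.42 against CA +GFP. For TMPyP4, too, the share of all genes called higher with both was not counted. *Ptprv* at 1.47 ± 0.27 (adjusted p = 0.000442) and *Sulf2* at 0.83 ± 0.13 (adjusted p = 0.000116) were called higher against CA +GFP, and so were *Fas* at 0.79 ± 0.16 (adjusted p = 0.00129) and *Ddb2* at 0.62 ± 0.16 (adjusted p = 0.00875). *Fas* and *Sulf2* had been called lower against Rtel1f/f +GFP, so their direction with TMPyP4 turns with the control. *Perp* at -0.71 ± 0.14 (adjusted p = 0.00117) and *Aen* at -0.37 ± 0.095 (adjusted p = 0.00778) were called lower against CA +GFP, and both had been called higher against Rtel1f/f +GFP. *Eda2r*, the largest rise with TMPyP4 at first, was at 0.05, *Ccng1* at -0.13 and *Mdm2* at -0.16, with no call.

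**Figure D4:**
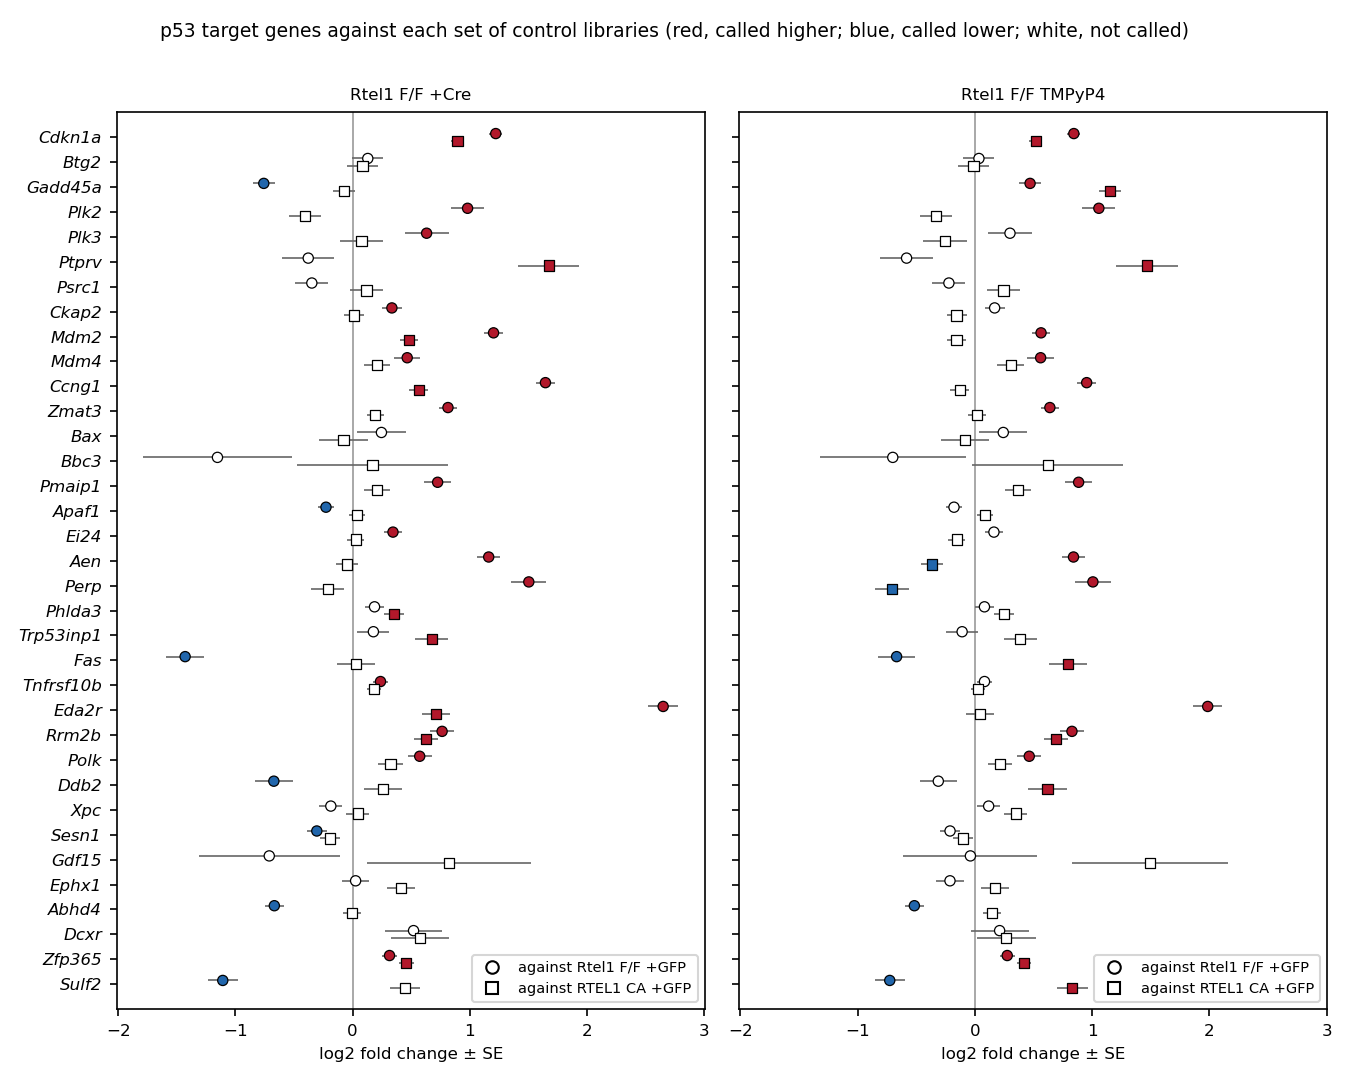
Log2 fold change ± SE of the 35 members for Rtel1f/f +Cre (left) and +GFP +TMPyP4 (right), against Rtel1f/f +GFP (circles) and against CA +GFP (squares), coloured by call. *Cdkn1a* is red in all 4 positions, and *Fas* with TMPyP4 is blue against the first controls and red against CA +GFP.

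CA +GFP compared directly with Rtel1f/f +GFP, before any Cre, had 21 of 35 members called, 11 higher and 10 lower, beside 44.7% of all genes. With DESeq2 size factors the split was 12 higher and 7 lower. *Perp*, *Eda2r*, *Plk2*, *Aen*, *Ccng1* and *Mdm2* rose most, at 1.72 ± 0.15 (adjusted p = 3.66e-08), 1.94 ± 0.13 (adjusted p = 1.2e-09), 1.39 ± 0.14 (adjusted p = 2.47e-07), 1.21 ± 0.097 (adjusted p = 1.47e-08), 1.08 ± 0.083 (adjusted p = 8.24e-09) and 0.72 ± 0.078 (adjusted p = 5.19e-07). Among called members *Ptprv*, *Sulf2*, *Fas*, *Ddb2*, *Gadd45a* and *Abhd4* fell most, at -2.05 ± 0.25 (adjusted p = 2.26e-06), -1.56 ± 0.13 (adjusted p = 2.8e-08), -1.46 ± 0.16 (adjusted p = 6.99e-07), -0.93 ± 0.16 (adjusted p = 9.45e-05), -0.68 ± 0.095 (adjusted p = 8.94e-06) and -0.66 ± 0.079 (adjusted p = 1.46e-06). *Gdf15* and *Bbc3* lay at -1.53 and -1.32 without a call. *Cdkn1a* was 0.33 and *Zmat3* 0.62 in this comparison and *Pmaip1* 0.52, all called. *Psrc1*, *Ckap2*, *Apaf1*, *Ei24*, *Trp53inp1* and *Ephx1* were called as well, at -0.47, 0.32, -0.26, 0.32, -0.50 and -0.39, each depending on single libraries. The *Psrc1* call was lost without CA +GFP replicate 1, 2 or 3 (adjusted p = 0.0129, 0.0396 and 0.0144) or Rtel1f/f +GFP replicate 1, 2 or 3 (0.0111, 0.0292 and 0.0199). The *Ckap2* call was lost without CA +GFP replicate 2 or 3 (adjusted p = 0.0246 and 0.0143) or Rtel1f/f +GFP replicate 1, 2 or 3 (0.0127, 0.0135 and 0.018). The *Apaf1* call was lost without CA +GFP replicate 1 or 3 (adjusted p = 0.0412 and 0.0509) or Rtel1f/f +GFP replicate 2 or 3 (0.0557 and 0.0179), and with DESeq2 size factors (0.0125), with no filter (0.0126) and with the compared groups fitted alone (0.0163). The *Ei24* call was lost without CA +GFP replicate 2 (adjusted p = 0.0145) or Rtel1f/f +GFP replicate 2 (0.0132). The *Trp53inp1* call was lost without CA +GFP replicate 1, 2 or 3 (adjusted p = 0.0413, 0.0137 and 0.0224) or Rtel1f/f +GFP replicate 2 or 3 (0.0956 and 0.0252), and with DESeq2 size factors (0.0102) and with the compared groups fitted alone (0.0271). The *Ephx1* call was lost without CA +GFP replicate 1, 2 or 3 (adjusted p = 0.104, 0.0132 and 0.0267) or Rtel1f/f +GFP replicate 2 or 3 (0.0887 and 0.0852), and with DESeq2 size factors (0.021), with DESeq2 (0.0167), with no filter (0.0162) and with the compared groups fitted alone (0.032). *Plk3* was called higher without CA +GFP replicate 2, at 0.76 (adjusted p = 0.00126).

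The difference between *Rtel1* loss and the Cre effect in CA cells was called for 13 of 35 members, beside 25.1% of all genes, with 8 members higher after *Rtel1* loss and 5 lower. *Eda2r* differed by 1.91 ± 0.17 (adjusted p = 5.06e-07), *Aen* by 1.10 ± 0.14 (adjusted p = 8.56e-06), *Plk2* by 1.07 ± 0.20 (adjusted p = 0.000386), *Ccng1* by 1.06 ± 0.12 (adjusted p = 2.73e-06), *Perp* by 0.75 ± 0.20 (adjusted p = 0.00688) and *Mdm2* by 0.72 ± 0.11 (adjusted p = 7.56e-05). On the lower side *Fas* differed by -1.38 ± 0.23 (adjusted p = 0.000155), *Sulf2* by -1.20 ± 0.18 (adjusted p = 7.35e-05), *Ddb2* by -1.03 ± 0.23 (adjusted p = 0.00188), *Abhd4* by -0.84 ± 0.11 (adjusted p = 1.74e-05) and *Gadd45a* by -0.51 ± 0.13 (adjusted p = 0.00619). *Cdkn1a* and *Zmat3* differed by 0.60 and 0.64, also called. The difference is the gap of CA +GFP over Rtel1f/f +GFP plus the gap of Rtel1f/f +Cre over CA +Cre, and the latter was not tested. These 2 gaps were 1.94 and -0.03 for *Eda2r*, 1.08 and -0.02 for *Ccng1*, 0.72 and 0.00 for *Mdm2* and 0.62 and 0.02 for *Zmat3*. They were 1.21 and -0.11 for *Aen* and -1.46 and 0.08 for *Fas*. For all of these members the first gap lay close to the difference. The gaps were 0.33 and 0.28 for *Cdkn1a*, 1.72 and -0.96 for *Perp*, 1.39 and -0.32 for *Plk2* and -1.56 and 0.36 for *Sulf2*. For the other called members they were -0.93 and -0.10 for *Ddb2*, -0.66 and -0.18 for *Abhd4* and -0.68 and 0.17 for *Gadd45a*. The median over the members was 0.03, beside -0.05 over all genes. The *Gadd45a* call was lost without CA +Cre replicate 2 or 3 (adjusted p = 0.0224 and 0.0229), CA +GFP replicate 2 or 3 (0.0288 and 0.0234), Rtel1f/f +Cre replicate 1 or 3 (0.0167 and 0.0304) or Rtel1f/f +GFP replicate 1, 2 or 3 (0.0101, 0.0238 and 0.0217), and with DESeq2 size factors (0.0117), with no filter (0.0127) and with the compared groups fitted alone (0.0216). The *Perp* call was lost without CA +Cre replicate 1 or 3 (adjusted p = 0.0188 and 0.0162), CA +GFP replicate 2 or 3 (0.0213 and 0.0124), Rtel1f/f +Cre replicate 1, 2 or 3 (0.01, 0.0196 and 0.0206) or Rtel1f/f +GFP replicate 1, 2 or 3 (0.0195, 0.0114 and 0.0143), and with the compared groups fitted alone (0.0197). The *Ddb2* call was lost without Rtel1f/f +GFP replicate 3 (adjusted p = 0.0103), and with the compared groups fitted alone (0.0128). Leaving out a library also added calls: *Psrc1* without CA +Cre replicate 2, at -0.75 (adjusted p = 0.00554), without Rtel1f/f +Cre replicate 1, at -0.77 (adjusted p = 0.00782), and without Rtel1f/f +Cre replicate 3, at -0.75 (adjusted p = 0.00566). *Pmaip1* was called without Rtel1f/f +Cre replicate 1, at 0.63 (adjusted p = 0.0062), and *Polk* without Rtel1f/f +Cre replicate 1, at 0.53 (adjusted p = 0.00944). The replicate block, whose numbers pair the CA libraries but not Rtel1f/f +Cre and +GFP, added *Pmaip1* (adjusted p = 0.000794), *Rrm2b* (0.00502) and *Polk* (0.00711) as higher. It added *Psrc1* (adjusted p = 0.00545) and *Ephx1* (0.00114) as lower.

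The difference between *Rtel1* loss and *Terf1* loss was called for 18 of 35 members, beside 30.2% of all genes, 9 higher after *Rtel1* loss and 9 lower. *Eda2r* differed by 1.62 ± 0.17 (adjusted p = 9.67e-07), *Plk2* by 1.07 ± 0.20 (adjusted p = 0.000314), *Ccng1* by 0.83 ± 0.12 (adjusted p = 2.04e-05), *Rrm2b* by 0.74 ± 0.15 (adjusted p = 0.000557), *Pmaip1* by 0.65 ± 0.16 (adjusted p = 0.00332) and *Aen* by 0.57 ± 0.13 (adjusted p = 0.00225). On the lower side *Fas* differed by -2.04 ± 0.23 (adjusted p = 2.62e-06), *Sulf2* by -1.66 ± 0.18 (adjusted p = 1.75e-06), *Ptprv* by -1.21 ± 0.30 (adjusted p = 0.00329), *Psrc1* by -0.93 ± 0.20 (adjusted p = 0.00102), *Abhd4* by -0.86 ± 0.11 (adjusted p = 9.93e-06) and *Ephx1* by -0.64 ± 0.16 (adjusted p = 0.00419). *Cdkn1a*, *Mdm2* and *Zmat3* differed by 0.46, 0.40 and 0.55, and *Zfp365*, *Phlda3* and *Apaf1* by -0.47, -0.44 and -0.33, all called. *Perp*, by contrast, differed by -0.01, with no call. The median over the members was -0.03, beside -0.05 over all genes. The *Ptprv* call was lost without Rtel1f/f +GFP replicate 2 (adjusted p = 0.0105). The *Mdm2* call was lost without Rtel1f/f +Cre replicate 2 or 3 (adjusted p = 0.0379 and 0.0199), Rtel1f/f +GFP replicate 1, 2 or 3 (0.0113, 0.03 and 0.035), Trf1f/f +Cre replicate 1 or 3 (0.0393 and 0.0287) or Trf1f/f +GFP replicate 2 or 3 (0.0296 and 0.0179), and with DESeq2 size factors (0.0102) and with the compared groups fitted alone (0.0102). The *Pmaip1* call was lost without Rtel1f/f +Cre replicate 2 (adjusted p = 0.0166), Rtel1f/f +GFP replicate 3 (0.0142), Trf1f/f +Cre replicate 1 or 3 (0.0159 and 0.0156) or Trf1f/f +GFP replicate 2 or 3 (0.0132 and 0.0106). The *Apaf1* call was lost without Rtel1f/f +Cre replicate 1 or 3 (adjusted p = 0.0202 and 0.06), Rtel1f/f +GFP replicate 1, 2 or 3 (0.0143, 0.0613 and 0.0274), Trf1f/f +Cre replicate 1, 2 or 3 (0.0581, 0.0488 and 0.0184) or Trf1f/f +GFP replicate 1 or 2 (0.0193 and 0.0564), and with DESeq2 size factors (0.0271), with DESeq2 (0.0154), with no filter (0.0369) and with the compared groups fitted alone (0.0162). The *Phlda3* call was lost without Rtel1f/f +Cre replicate 2 (adjusted p = 0.0125), Rtel1f/f +GFP replicate 1 or 3 (0.0114 and 0.0139), Trf1f/f +Cre replicate 1 (0.0123) or Trf1f/f +GFP replicate 3 (0.023), and with the compared groups fitted alone (0.0143). The *Ephx1* call was lost without Rtel1f/f +Cre replicate 1 or 3 (adjusted p = 0.0131 and 0.0102), Rtel1f/f +GFP replicate 2 or 3 (0.0264 and 0.0251), Trf1f/f +Cre replicate 1, 2 or 3 (0.0121, 0.0206 and 0.0112) or Trf1f/f +GFP replicate 1 or 2 (0.0129 and 0.0113). *Trp53inp1* was called lower without Rtel1f/f +GFP replicate 1, at -0.61 (adjusted p = 0.00969).

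Rtel1f/f +Cre compared directly with +GFP +TMPyP4 avoids the shared controls. It gave 6 of 35 members called, 4 higher after *Rtel1* loss and 2 lower, beside 15.2% of all genes, and 10 called with the replicate block, whose numbers pair these libraries. The block added *Aen* (adjusted p = 0.00824), *Perp* (0.00272) and *Ephx1* (0.00374) as higher and *Sulf2* (0.00204) as lower. *Aen* was also called without Rtel1f/f +Cre replicate 2, at 0.41 (adjusted p = 0.00457). *Ccng1* differed by 0.69 ± 0.082 (adjusted p = 6.81e-06), *Eda2r* by 0.66 ± 0.12 (adjusted p = 0.000412), *Mdm2* by 0.64 ± 0.078 (adjusted p = 9.69e-06) and *Cdkn1a* by 0.38 ± 0.055 (adjusted p = 6.11e-05), higher with *Rtel1* loss. *Gadd45a* differed by -1.23 ± 0.096 (adjusted p = 4.48e-08) and *Fas* by -0.76 ± 0.16 (adjusted p = 0.00192), lower with *Rtel1* loss. *Gadd45a* had been called lower after *Rtel1* loss and higher with TMPyP4. The *Fas* call was lost without Rtel1f/f +Cre replicate 1 or 3 (adjusted p = 0.0127 and 0.0133). The median over the members was 0.09, beside 0.00 over all genes.

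Levels of different members are compared as TPM, which divides by transcript length. In Rtel1f/f +GFP the highest were *Plk2* at 263 ± 72.7 TPM (SD, n = 3), *Bax* at 134 ± 9.19, *Gadd45a* at 84.3 ± 2.91 and *Ei24* at 82.1 ± 1.25. *Gadd45a* and *Ei24* lay within their spread of each other. The lowest were *Eda2r* at 2.46 ± 0.450, *Perp* at 2.29 ± 0.398, *Gdf15* at 1.91 ± 0.372 and *Ptprv* at 0.623 ± 0.111, of which the first 3 had overlapping spreads. *Eda2r* and *Perp*, both called in all 4 comparisons, started from low levels in Rtel1f/f cells. In Trf1f/f +GFP the order was led by *Plk2* at 302 ± 8.69, *Cdkn1a* at 284 ± 14.6, *Ccng1* at 269 ± 8.56 and *Bax* at 241 ± 13.1, where the spread of *Cdkn1a* overlapped those of *Plk2* and *Ccng1*. *Cdkn1a* was at 58.3 ± 0.897 TPM in Rtel1f/f +GFP and 475 ± 5.59 in Trf1f/f +Cre, and the lines were not tested against each other.

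*Trp53* itself was at 185 ± 14.1 CPM (SD, n = 3) in Rtel1f/f +GFP, 194 ± 14.7 with +Cre and 179 ± 7.13 with +TMPyP4. It was at 203 ± 13.3 in CA +GFP, 192 ± 14.1 in CA +Cre, 148 ± 7.53 in Trf1f/f +GFP and 166 ± 20.3 in Trf1f/f +Cre, and was called in no comparison, its log2 fold change being 0.07, -0.08, 0.16 and -0.05 in the 4 main ones. Of 23 tested regulators of p53, 4 higher and 2 lower were called after *Rtel1* loss, 2 higher and 0 lower in Trf1f/f cells and 1 higher and 1 lower with TMPyP4. All genes were called higher and lower at 22.0% and 21%, 2.65% and 0.765%, and 16.6% and 13.4% in these comparisons. Of 24 further p53 targets the calls were 5 higher and 7 lower, 3 higher and 0 lower and 5 higher and 6 lower. In CA cells edgeR called 0 of each list, and 2 regulators and 5 further targets were at an unadjusted p under 0.05. Against CA +GFP 1 regulator and 3 further targets were called after *Rtel1* loss, and 1 and 7 with TMPyP4, where 3.80% and 3.95%, and 9.94% and 7.07%, of all genes were called higher and lower. Median log2 fold changes of the further targets were -0.32 after *Rtel1* loss, 0.31 in Trf1f/f cells and 0.06 with TMPyP4, beside -0.03, 0.00 and -0.01 over all genes. *Trp63*, a p53 relative, was low, with 39, 74 and 56 counts in Rtel1f/f +GFP, 4, 2 and 1 with +Cre and 6, 5 and 11 with +TMPyP4. *Trp63* log2 fold changes were -4.26 ± 0.37 (adjusted p = 3.5e-08) after *Rtel1* loss and -2.60 ± 0.30 (adjusted p = 3.36e-06) with TMPyP4.

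Genes that p53 represses through the DREAM complex numbered 12, with 6 higher and 1 lower after *Rtel1* loss, 1 higher and 0 lower in CA cells and 3 higher and 1 lower with TMPyP4, beside 22.0% and 21%, 0.525% and 0.569%, and 16.6% and 13.4% of all genes. In CA cells the call was *Ccnb2*, a mitotic cyclin, at 0.29 ± 0.052 (adjusted p = 0.00437). In Trf1f/f cells edgeR called 0, with 1 at an unadjusted p under 0.05. Targets of the stress factor ATF4 gave 2 higher and 6 lower after *Rtel1* loss and 10 higher and 0 lower with TMPyP4, of 12, and immediate early genes 4 higher and 4 lower and 3 higher and 3 lower, of 12. Interferon-stimulated genes, 10 in all, gave 0 higher and 8 lower after *Rtel1* loss, 10 higher and 0 lower in Trf1f/f cells, beside 2.65% and 0.765% of all genes, and 0 higher and 9 lower with TMPyP4. The lists were not run with DESeq2. By edgeR 0 of these 10 were called higher after *Rtel1* loss, and 0 were higher at an unadjusted p under 0.05. With Cre in CA cells edgeR called 0 of the 10, of which 9 had a fold change above 0. At an unadjusted p under 0.05, 6 were higher and 0 lower there. Against CA +GFP the direction turned, with 4 higher and 0 lower after *Rtel1* loss, beside 3.80% and 3.95% of all genes, and 6 higher and 0 lower with TMPyP4, beside 9.94% and 7.07%. These are edgeR counts, with 0 and 0 lower at an unadjusted p under 0.05. Against CA +GFP 1 DREAM, 1 ATF4 and 1 immediate early gene were called after *Rtel1* loss. With TMPyP4 edgeR called 11 ATF4 targets and 0 of the other 2 lists, of which 4 DREAM and 1 immediate early gene were at an unadjusted p under 0.05. Next to *Trp63*, the largest called changes in these lists were *Ifi44* at -3.40 ± 0.32 (adjusted p = 1.39e-07) and *Usp18* at -2.89 ± 0.17 (adjusted p = 4.09e-10) after *Rtel1* loss, and *Usp18* at -2.26 ± 0.16 (adjusted p = 1.71e-08) and *Irf7* at -1.99 ± 0.24 (adjusted p = 6.77e-06) with TMPyP4. In Trf1f/f cells they were *Oasl1* at 2.28 ± 0.15 (adjusted p = 7.9e-08), *Rsad2* at 2.20 ± 0.17 (adjusted p = 4.24e-07) and *Irf7* at 1.70 ± 0.19 (adjusted p = 1.22e-05).

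In the difference of *Rtel1* loss from CA cells the largest in these lists were *Ifi44* at -3.50 ± 0.60 (adjusted p = 0.000229), *Irf7* at -3.22 ± 0.41 (adjusted p = 1.49e-05) and *Usp18* at -2.97 ± 0.28 (adjusted p = 6.45e-07). In the difference from *Terf1* loss they were *Ifi44* at -4.54 ± 0.37 (adjusted p = 9.68e-08), *Trp63* at -4.27 ± 0.46 (adjusted p = 1.51e-06) and *Irf7* at -4.21 ± 0.31 (adjusted p = 3.13e-08). Against TMPyP4 they were *Fgf21* at -2.78 ± 0.19 (adjusted p = 1e-08), *Ifi44* at -2.05 ± 0.36 (adjusted p = 0.000456) and *Trib3* at -1.95 ± 0.20 (adjusted p = 2.32e-06), the last an ATF4 target like *Fgf21*. Before Cre, CA +GFP differed from Rtel1f/f +GFP most in *Ifi44* at -3.62 ± 0.32 (adjusted p = 7.86e-08), *Irf7* at -3.22 ± 0.27 (adjusted p = 3.73e-08) and *Tgfa* at -3.09 ± 0.36 (adjusted p = 1.22e-06). Against CA +GFP, *Trp63* at -2.41 ± 0.44 (adjusted p = 0.000977), *Tgfa* at 1.897 ± 0.42 (adjusted p = 0.00423) and *Oasl2* at 1.59 ± 0.20 (adjusted p = 3.18e-05) were largest after *Rtel1* loss. With TMPyP4 they were *Fgf21* at 2.93 ± 0.19 (adjusted p = 4.38e-09), *Ifi44* at 2.27 ± 0.37 (adjusted p = 0.000189) and *Vldlr* at 2.14 ± 0.070 (adjusted p = 1.21e-12).

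In the mouse build GRCm38.p6 the 5 genes higher in all Cre comparisons lie apart: *Cdkn1a* at chr17:29090979-29100722, *Mdm2* at chr10:117688875-117710758, *Ccng1* at chr11:40748552-40755309, *Perp* at chr10:18845071-18857073 and *Eda2r* at chrX:97333837-97377234. RefSeq promoter windows of 300 bases, 250 before and 50 after a transcript start, matched 26 of the 35 members with 37 windows. The windows were searched for a pair of p53 half-site cores (each CNNG with A or T for every N, a motif that covers both strands at once) set 6 bases apart, and for a G-quadruplex motif of 4 runs of at least 3 G with loops of 1 to 7 bases, on either strand. Core pairs were in 7 of the 37 windows, 18.9%, beside 7.22% of all 32851 promoters. G-quadruplex motifs were in 13, 35.1%, beside 18.6%. The 2 *Aen* windows overlap and hold the same core pair, and 2 overlapping windows each of *Bbc3* and *Psrc1* carry G-quadruplex motifs, so these shares count some bases more than 1 time. The 6 members with core pairs were *Bbc3*, *Aen*, *Ckap2*, *Zfp365*, *Plk2* and *Cdkn1a*. Shown are 3 of these called higher after *Rtel1* loss, with the cores in capitals, and *Eda2r*, the largest rise, with its G-quadruplex motif in capitals as it reads on the opposite strand to the G runs. The *Cdkn1a* window is chr17:29090729-29091028 on the + strand, *Aen* chr7:78895808-78896107 on the + strand, *Plk2* chr13:110394794-110395093 on the + strand and *Eda2r* chrX:97377160-97377459 on the - strand. A match describes letters in these windows and is not a measured binding site.
Cdkn1a: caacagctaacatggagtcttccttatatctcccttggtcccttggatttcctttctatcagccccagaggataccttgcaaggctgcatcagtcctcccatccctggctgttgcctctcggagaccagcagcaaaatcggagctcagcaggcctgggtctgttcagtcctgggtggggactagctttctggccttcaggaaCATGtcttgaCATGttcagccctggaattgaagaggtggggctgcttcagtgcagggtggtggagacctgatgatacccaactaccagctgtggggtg
Aen: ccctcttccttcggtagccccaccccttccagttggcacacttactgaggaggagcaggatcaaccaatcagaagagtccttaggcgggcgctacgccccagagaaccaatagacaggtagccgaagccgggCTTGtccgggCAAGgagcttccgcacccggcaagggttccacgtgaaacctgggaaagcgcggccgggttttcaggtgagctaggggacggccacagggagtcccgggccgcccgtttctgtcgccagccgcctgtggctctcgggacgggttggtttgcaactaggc
Plk2: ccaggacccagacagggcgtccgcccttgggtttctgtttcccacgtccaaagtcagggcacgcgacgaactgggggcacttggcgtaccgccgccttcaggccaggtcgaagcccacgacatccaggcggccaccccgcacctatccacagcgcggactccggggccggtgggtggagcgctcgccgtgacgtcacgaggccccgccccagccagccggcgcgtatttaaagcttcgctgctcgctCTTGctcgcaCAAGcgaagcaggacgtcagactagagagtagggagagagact
Eda2r: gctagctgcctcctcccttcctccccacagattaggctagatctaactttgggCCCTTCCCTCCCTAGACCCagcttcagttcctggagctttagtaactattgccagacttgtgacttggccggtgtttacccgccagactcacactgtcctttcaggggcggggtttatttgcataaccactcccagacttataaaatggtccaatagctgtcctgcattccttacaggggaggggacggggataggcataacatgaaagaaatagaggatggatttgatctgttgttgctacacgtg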

How the data were processed

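The authors trimmed reads with cutadapt 1.9.1, aligned them to mm10 with STAR 2.5.2a and quantified genes with RSEM 1.3.0; the deposited table holds expected counts, all whole numbers, and TPM for each library, and 0 of its columns were left unused. The deposited TPM served only to compare levels between genes. Counts were scaled by TMM and tested in R 4.3.3 with edgeR 4.0.16 (limma 3.58.1) across all genes that passed filterByExpr by group: a robust quasi-likelihood F test, two-sided, on 21 libraries in 7 groups with 14 residual degrees of freedom, and Benjamini-Hochberg adjustment over the 13719 genes. The threshold of 0.01 is that of the study. Alternatives were an adjusted p of 0.05, DESeq2 1.42.0 and its size factors, no filter, at least 10 counts in every library, a replicate block, only the groups compared, CA +GFP as control and each library left out in turn. Figures were drawn with Python 3.11.15 and matplotlib 3.10.9.

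Members and lists were chosen with earlier results of these data known. All 35 members are named. Per-library CPM is given for those called in at least 1 of the 4 main comparisons, and log2 fold change, SE and adjusted p for the 6 largest rises and 6 largest falls among called members of each comparison, the 3 largest called changes of the other lists without the cell markers, and *Trp53* in every group; *Bax* and *Bbc3* by library were chosen after their values were seen. Whether replicates of the same number pair was checked as the correlation across 11840 genes of each library's deviation from its group mean, for replicates 1, 2 and 3: 0.864, 0.839 and 0.424 for CA +Cre and CA +GFP, 0.724, 0.758 and 0.409 for Rtel1f/f +Cre and +TMPyP4, -0.017, 0.058 and 0.131 for Rtel1f/f +Cre and +GFP, and 0.552, 0.358 and -0.1 for Trf1f/f +Cre and +GFP. Genes are not independent replicates. Coordinates and promoters are from RefSeq on GRCm38.p6, the assembly that mm10 names.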

Additional observations from a re-analysis of the deposited data

Results flagged for a closer look

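The Cre effect on 13 p53 target genes differed between Rtel1f/f cells and CA cells by a test of the difference itself (edgeR, adjusted p of at most 0.01), beside 25.1% of all genes. As log2 differences, Rtel1f/f minus CA, the values above 0 were *Cdkn1a* 0.60, *Plk2* 1.07, *Mdm2* 0.72, *Ccng1* 1.06, *Zmat3* 0.64, *Aen* 1.10, *Perp* 0.75 and *Eda2r* 1.91. Those below 0 were *Gadd45a* -0.51, *Fas* -1.38, *Ddb2* -1.03, *Abhd4* -0.84 and *Sulf2* -1.20. The Cre effect on 18 of the genes differed in the same way between Rtel1f/f cells and Trf1f/f cells, beside 30.2% of all genes. As log2 differences, Rtel1f/f minus Trf1f/f, the values above 0 were *Cdkn1a* 0.46, *Plk2* 1.07, *Mdm2* 0.40, *Ccng1* 0.83, *Zmat3* 0.55, *Pmaip1* 0.65, *Aen* 0.57, *Eda2r* 1.62 and *Rrm2b* 0.74. Those below 0 were *Ptprv* -1.21, *Psrc1* -0.93, *Apaf1* -0.33, *Phlda3* -0.44, *Fas* -2.04, *Ephx1* -0.64, *Abhd4* -0.86, *Zfp365* -0.47 and *Sulf2* -1.66. Every one of these 31 differences rests on the Rtel1f/f +GFP libraries, which stand apart from the other libraries of their line. The difference with CA cells holds the gap between the 2 sets of controls, which was 1.94 for *Eda2r*, 1.08 for *Ccng1*, 0.72 for *Mdm2* and -1.46 for *Fas*, close to the whole of each. The gap departed from the difference for *Cdkn1a*, at 0.33, *Perp*, at 1.72, *Plk2*, at 1.39, and *Sulf2*, at -1.56. The calls of *Gadd45a*, *Perp* and *Ddb2* with CA cells, and of *Ptprv*, *Mdm2*, *Pmaip1*, *Apaf1*, *Phlda3* and *Ephx1* with Trf1f/f cells, were lost when single libraries were left out.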

How the results depend on the processing

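Of 1053 fold changes in the 4 main comparisons, recomputed under the alternatives other than CA +GFP as control for members that at least 1 fit called there, 923 kept their direction and side of the threshold, 87 lost the call, 43 gained one and 0 changed direction. With CA +GFP as control the members called went from 24 to 9 after *Rtel1* loss and from 17 to 10 with TMPyP4, since the control group itself changes, and with TMPyP4 the calls of *Fas* and *Sulf2* turned from lower to higher and those of *Perp* and *Aen* from higher to lower. At an adjusted p of at most 0.05, 8 members were called in CA cells in place of 5, 22 in Trf1f/f cells in place of 13 and 10 between *Rtel1* loss and TMPyP4 in place of 6. With the CA libraries fitted alone 0 were called in CA cells, with 4 residual degrees of freedom in place of 14. DESeq2 called 7 in CA cells, and 17 in Trf1f/f cells with *Ptprv*, *Psrc1*, *Ckap2* and *Sulf2* added. With a replicate block 20 were called in Trf1f/f cells, whose replicates did not pair, and 10 between *Rtel1* loss and TMPyP4, whose replicates did; the cause of either rise was not tested. It called 7 in CA cells, whose replicates paired too, 25 after *Rtel1* loss, 18 with TMPyP4, 18 and 21 for the differences from CA and Trf1f/f cells and 17 for CA +GFP against Rtel1f/f +GFP. In CA cells it added *Ephx1* and *Trp53inp1* and changed no other call. In comparisons whose replicates did not pair, the block added *Bbc3* as lower after *Rtel1* loss, *Ephx1* as lower with TMPyP4, and, in Trf1f/f cells, *Btg2*, *Psrc1*, *Ckap2*, *Ei24*, *Fas* and *Sulf2* as higher and *Sesn1* as lower. For CA +GFP against Rtel1f/f +GFP it added *Plk3* and did not call *Psrc1*, *Ckap2*, *Apaf1*, *Ei24* and *Trp53inp1*. Leaving out 1 library at a time gave 17 to 22 members called after *Rtel1* loss, 1 to 6 in CA cells, 10 to 13 in Trf1f/f cells and 13 to 18 with TMPyP4. The same runs gave 10 to 14 for the difference from CA cells, 13 to 16 for that from Trf1f/f cells, 5 to 7 against TMPyP4 and 15 to 19 for CA +GFP against Rtel1f/f +GFP. The scaling by DESeq2 size factors moved the median of all genes by under 0.1 in each comparison, and by 0.0265 at most. With at least 10 counts in every library 34 members could be tested.

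Whether library depth limited any call was not tested. *Gdf15* and *Ptprv* stayed near 1 CPM or below in several groups, and *Terf1* and *Trp63* rest on single reads in some. With 3 libraries a group, a fold change that missed the threshold is not shown to be absent.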
